A study of Rattus norvegicus with 32 samples.

Results

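Glutamate and GABA carry most fast signaling between neurons, and the genes of their receptors were followed here across 4 tissues and 3 *Csf1r* genotypes of the rat. All genes of the array annotation whose single symbol names a subunit of an AMPA, kainate, NMDA, delta or metabotropic glutamate receptor (*Gria*, *Grik*, *Grin1* to *Grin3*, *Grid*, *Grm*) or begins with *Gabr* (GABA-A receptors) were taken, without regard to their values. This gave 24 genes of 14557 with a single symbol, 13 for glutamate and 11 for GABA-A receptors, each read from the probe set with the highest mean. The RefSeq annotation of the assembly GRCr8 holds 45 genes with such symbols, and 21 of them were not analysed here. Transcripts were read on 24 arrays (Affymetrix Rat Gene 2.1 ST), 2 for each genotype in tissue labelled hippocampus, striatum, olfactory bulbs and pituitary gland. The rats were adult females of mixed strain, DA/SD in the labels, and carried 2 intact *Csf1r* alleles (*Csf1r* +/+, WT), 1 (*Csf1r* +/-, HET) or none (*Csf1r* -/-, KO). In the disrupted allele, which HET and KO rats carry in every cell, a reporter and selection cassette was put into the gene in stem cells of a male Dark Agouti rat, and the colony goes back to 1 targeted clone and to Sprague-Dawley embryo donors. The methods name 2 rats per genotype, which were not perfused.

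Ionotropic glutamate receptors are cation channels built of several subunits, and most fast excitation passes through AMPA receptors, while NMDA receptors require *Grin1* plus a further subunit that sets their kinetics. Metabotropic glutamate receptors act through G proteins and often sit on the presynaptic side. GABA-A receptors are chloride channels whose subunits are usually of the alpha, beta and gamma classes, and several of their genes lie side by side on a chromosome.

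*Csf1r*, the targeted gene, had log2 intensities of 7.63 to 9.12 on WT, 7.59 to 8.62 on HET and 2.73 to 3.96 on KO arrays. Within hippocampus, striatum and the arrays labelled pituitary gland, HET lay below WT without overlap. On arrays labelled olfactory bulbs HET (7.59 to 7.79) and WT (7.63 to 7.74) overlapped. The mean of 9 microglial genes lay at 3.05 to 3.85 on the 8 KO arrays and at 6.41 to 7.97 on the other 16. The tissue labels were checked against markers, and in 2 tissues the markers went against them. The arrays labelled olfactory bulbs had a mean of 10.30 to 10.77 over 8 genes of the anterior pituitary, against 4.0 to 5.03 on the arrays labelled pituitary gland. The arrays labelled pituitary gland had 9.16 to 9.44 over 7 genes of olfactory bulb neurons, against 4.88 to 5.43 on the arrays labelled olfactory bulbs. A further label field names striatum for both. Every array keeps its deposited tissue label below. Single arrays also had high values of genes that mark a neighbouring tissue. The mean of 8 choroid plexus genes was 9.48 for hippocampus WT 2 and 9.56 for hippocampus KO 2, whereas the remaining 4 had 4.25 to 4.96. The mean of 6 genes of cortical projection neurons was 8.03 on striatum WT 2, 7.29 on KO 1 and 7.06 on HET 2, whereas the remaining 3 had 6.11 to 6.43. These 5 arrays and 3 labelled pituitary gland (HET 1, HET 2 and KO 2), to which earlier results gave transcripts of another tissue, are the 8 left out in an alternative fit. The mean of 6 olfactory mucosa genes was 5.71, 5.21 and 6.37 on those 3, and 5.64, 5.43 and 4.50 on WT 1, WT 2 and KO 1, so these overlapped. Median intensity over all probe sets was 18.9 to 21.7 on hippocampus and striatum arrays and 15.1 to 17.5 on those labelled olfactory bulbs and pituitary gland. In comparisons across these 2 sets of arrays, tissue and set go together and cannot be told apart. The number of arrays limits the precision, and since no label ties a replicate number to a rat, the p-values cover the spread between these samples only.

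Of the 24 receptor genes, 21 reached an intensity of 20 (log2 4.32) on at least 1 array, as did 10663 of all 14557 genes, and these were tested. *Gabrr1* and *Gabrr3*, rho subunits best known from the retina, and *Grin3b*, a glycine-binding NMDA subunit, did not pass on any array, with log2 intensities between 2.25 and 4.17. In all, 10 of the 21 stood at 20 or more on all 24 arrays, namely *Gabra2*, *Gabra3*, *Gabrb2*, *Gabrg1*, *Gabrg3*, *Grid1*, *Grik3*, *Grik5*, *Grin1* and *Grin3a*. *Gabrr2* passed only through hippocampus, where 5 arrays reached 20, so a difference from the other tissues was built into its selection. All 21 differed among the 4 tissues in the moderated F test of limma, and so did 90.1% of all genes tested. The largest adjusted p among the receptor genes was 0.000292 (*Grm6*). In bulk tissue, fewer cells of a type and less RNA per cell cannot be told apart.

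**Figure D1:**
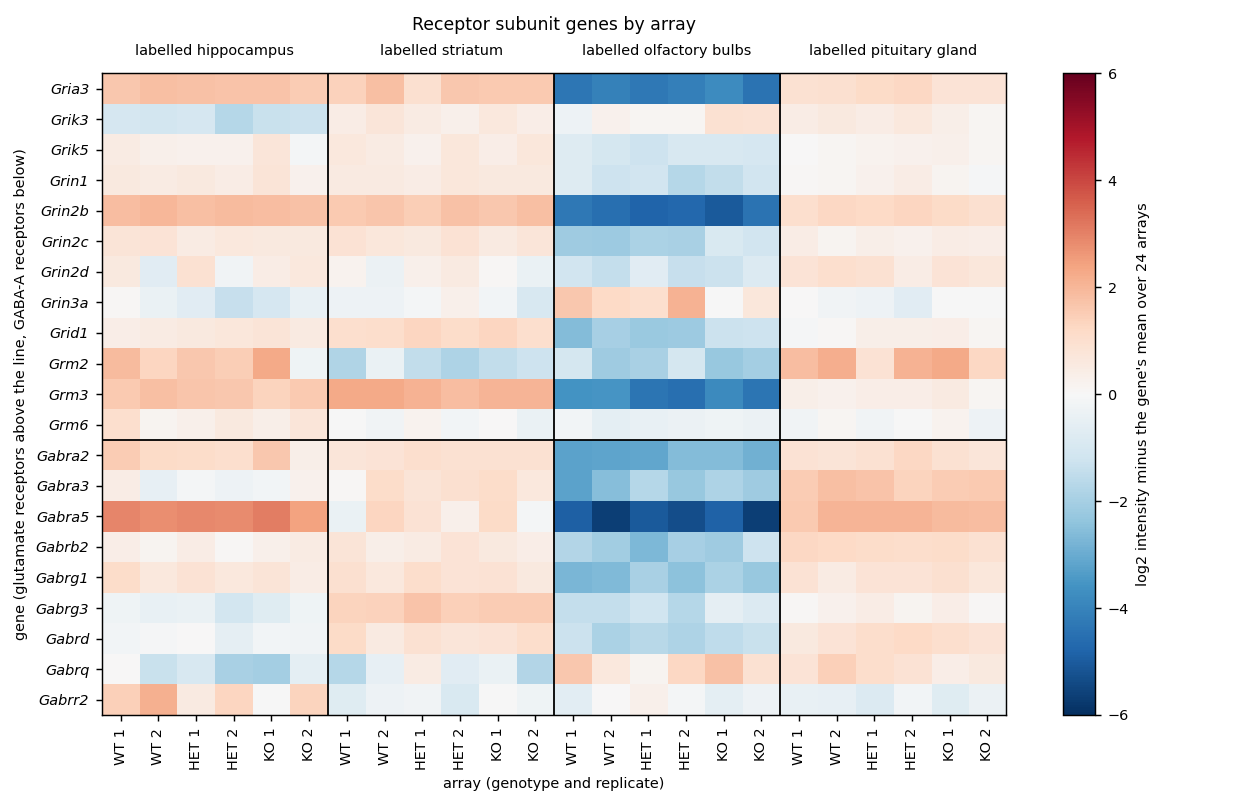
Each cell is the log2 intensity of 1 receptor gene (rows) on 1 array (columns) minus that gene's mean over the 24 arrays, with arrays grouped by labelled tissue and ordered by genotype. The arrays labelled olfactory bulbs stand apart for most genes, lowest for *Gabra5*, *Grin2b*, *Gria3* and *Grm3*, while *Grin3a* had its highest mean there.

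Among the subunits of ionotropic glutamate receptors, *Grik3*, a kainate receptor subunit, had the widest gap between hippocampus and striatum. It lay between 6.18 and 6.89 in hippocampus (median 6.68), between 8.17 and 8.61 in striatum (8.34) and between 7.99 and 8.54 on arrays labelled pituitary gland (8.30). No hippocampus array reached any array of the other 2 tissues. The log2 difference of hippocampus minus striatum was -1.74 (SE 0.125, adjusted p = 3.69e-08, limma, 6 arrays per tissue), and pituitary gland minus hippocampus gave 1.67 (SE 0.125, adjusted p = 2.36e-08). *Grik5*, the partner that forms channels only together with other kainate subunits, spanned 7.95 to 8.81 in hippocampus and 8.32 to 8.78 in striatum, and these overlapped. *Grid1*, a delta receptor that joins the sides of a synapse through cerebellins, was lower in hippocampus (8.58 to 8.97) than in striatum (9.18 to 9.49) with a log2 difference of -0.55 (adjusted p = 0.00074). On arrays labelled pituitary gland it lay at 8.13 to 8.57, below every striatum array, with a difference of -0.92 (adjusted p = 1.44e-06).

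Of the NMDA subunits tested, 0 of 5 passed the threshold between hippocampus and striatum in limma, and 0 did at an unadjusted p under 0.05 (35% of all genes). *Grin1*, the obligatory NMDA subunit, had means of 9.42 ± 0.17 in hippocampus and 9.47 ± 0.07 in striatum (SD, n = 6). *Grin2b*, the subunit that dominates early in life and in forebrain, had 10.42 ± 0.08 and 10.21 ± 0.12. *Gria3*, an AMPA receptor subunit, had 9.87 ± 0.10 and 9.68 ± 0.29. On arrays labelled pituitary gland all of these were lower, at 9.06 ± 0.17 for *Grin1*, 9.70 ± 0.12 for *Grin2b* and 9.16 ± 0.17 for *Gria3*, and each passed the test against both tissues. The largest of these falls was that of *Grin2b* against hippocampus, -0.72 (adjusted p = 2.27e-05), with no overlap between the arrays. *Grin2c*, known from cerebellar granule cells and astrocytes, lay at 6.79 to 7.13 in hippocampus, 6.86 to 7.17 in striatum and 6.45 to 6.73 on arrays labelled pituitary gland. *Grin2d* went the other way and had its highest values, 4.90 to 5.46, on arrays labelled pituitary gland, where it passed against striatum (0.71, adjusted p = 0.0129) and not against hippocampus (0.49, adjusted p = 0.0699). The call against striatum was lost with quantile normalization repeated.

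The metabotropic receptors of group II, *Grm2* and *Grm3*, both lower cyclic AMP and differed in their distribution. *Grm2*, mostly a presynaptic receptor of excitatory terminals, ranged from 4.72 to 7.26 in hippocampus (median 6.54), from 3.15 to 4.61 in striatum (3.49) and from 5.84 to 7.28 on arrays labelled pituitary gland (6.95). The striatum values lay under an intensity of 20 on 5 of 6 arrays, so the size of the difference is limited by background. Hippocampus exceeded striatum by 2.75 (SE 0.389, adjusted p = 6.04e-05) and the arrays labelled pituitary gland exceeded striatum by 3.12 (SE 0.389, adjusted p = 4.85e-06), with no overlap in either. The lowest hippocampus array was KO 2 (4.72), which also had the highest choroid plexus mean. The highest striatum array was WT 2 (4.61), which had the highest cortical mean. The striatum arrays with the next highest cortical means, KO 1 (7.29) and HET 2 (7.06), did not follow in *Grm2*. KO 1 had 3.50, below KO 2 (3.75), whose cortical mean was lower, and HET 2 had the lowest striatum value, 3.15. The part of choroid plexus and cortex in the spread of *Grm2* was not tested. *Grm3*, which glia also express, was highest in striatum (9.32 to 9.77, median 9.53), then hippocampus (8.82 to 9.29, 9.06), then the arrays labelled pituitary gland (7.60 to 8.02, 7.83). These 3 ranges did not overlap. The log2 differences were -0.50 for hippocampus minus striatum (adjusted p = 0.0023), -1.25 for pituitary gland minus hippocampus (SE 0.106, adjusted p = 8.85e-08) and -1.75 for pituitary gland minus striatum (SE 0.106, adjusted p = 2.3e-09). *Grm6*, the receptor of retinal ON bipolar cells, stayed between 3.79 and 5.16 in these 3 tissues. It was higher in hippocampus than in striatum by 0.61 (limma, adjusted p = 0.00582), with overlapping arrays. All 6 hippocampus arrays reached an intensity of 20, against 1 striatum array and 1 array labelled pituitary gland. The size of this difference is therefore limited by background.

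**Figure D2:**
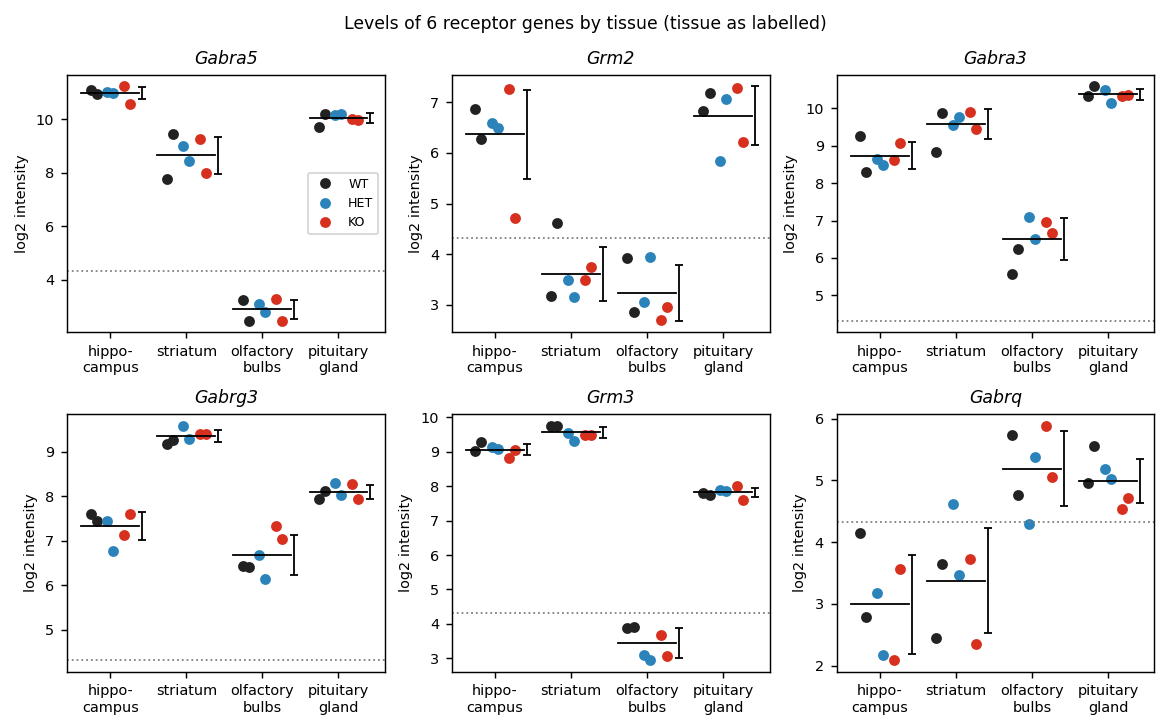
Points are log2 intensities of single arrays by labelled tissue, colored by genotype, with the line at the mean and the bar at 1 SD of 6 arrays, and the dotted line at an intensity of 20. *Gabra5* was highest in hippocampus, *Gabrg3* and *Grm3* in striatum, and *Gabra3* on arrays labelled pituitary gland.

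Among the GABA-A alpha subunits, *Gabra5* and *Gabra3* had different orders across tissues, while *Gabra2* passed no pairwise test among hippocampus, striatum and the arrays labelled pituitary gland. *Gabra5*, the subunit of extrasynaptic receptors for which hippocampus is known, ranged from 10.55 to 11.22 in hippocampus (median 10.99), from 9.70 to 10.19 on arrays labelled pituitary gland (10.08) and from 7.75 to 9.43 in striatum (8.71). The 3 ranges did not overlap, and hippocampus exceeded striatum by 2.32 (SE 0.274, adjusted p = 9.31e-06), a 4.98-fold difference. The arrays labelled pituitary gland lay between them, at -0.93 against hippocampus (SE 0.274, adjusted p = 0.008) and 1.39 against striatum (SE 0.274, adjusted p = 0.000402). Striatum had the widest range of the 3. Its values were 7.75 on WT 1, 9.43 on WT 2, 8.98 on HET 1, 8.44 on HET 2, 9.26 on KO 1 and 8.01 on KO 2. The 2 highest, WT 2 and KO 1, also had the 2 highest means of cortical genes, and this relation was not tested. The 2 HET arrays went the other way, since HET 1 had the higher *Gabra5* with a cortical mean of 6.43, against 7.06 on HET 2. Without the 8 arrays named above, the difference was 2.79. *Gabra3*, an alpha subunit of monoaminergic and other ascending neurons, ran from 8.30 to 9.26 in hippocampus (8.64), from 8.85 to 9.92 in striatum (9.67) and from 10.15 to 10.59 on arrays labelled pituitary gland (10.35). The last of these lay above every other array, by 1.64 against hippocampus (SE 0.204, adjusted p = 4.86e-06) and by 0.80 against striatum (SE 0.204, adjusted p = 0.00297). *Gabra2*, a main alpha subunit of forebrain, had means of 9.62 ± 0.44, 9.38 ± 0.09 and 9.40 ± 0.18 (SD, n = 6) in hippocampus, in striatum and on arrays labelled pituitary gland. With quantile normalization repeated, it passed as lower on arrays labelled pituitary gland than in hippocampus.

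The beta, gamma, delta and theta subunits added further differences. *Gabrb2*, the most widespread beta subunit, was highest on arrays labelled pituitary gland (10.54 to 10.83) and passed against hippocampus (0.78, adjusted p = 0.000467) and striatum (0.52, adjusted p = 0.00886). *Gabrg1* lay between 8.61 and 9.25 on all 18 arrays of the 3 tissues and passed in none of the 3 comparisons. *Gabrg3*, a rarer gamma subunit, was highest in striatum (9.18 to 9.58, median 9.33), then on arrays labelled pituitary gland (7.93 to 8.29, 8.08), then in hippocampus (6.77 to 7.60, 7.44). None of these ranges overlapped, with -2.02 for hippocampus minus striatum (SE 0.134, adjusted p = 1.44e-08), -1.25 for pituitary gland minus striatum (SE 0.134, adjusted p = 1.06e-06) and 0.77 for pituitary gland minus hippocampus (adjusted p = 0.000133). *Gabrd*, the delta subunit of receptors outside the synapse, had 5.20 to 5.77 in hippocampus (5.59), 6.28 to 6.89 in striatum (6.63) and 6.35 to 6.97 on arrays labelled pituitary gland (6.68). Hippocampus was below both others, by a log2 difference of -1.06 against striatum (SE 0.134, adjusted p = 1.93e-05), while pituitary gland minus hippocampus gave 1.11 (adjusted p = 3.53e-06). *Gabrq*, the theta subunit known from hypothalamus and brainstem, reached 20 on no hippocampus array (2.09 to 4.15, median 2.98), on 1 striatum array (2.36 to 4.61, 3.56) and on all 6 labelled pituitary gland (4.53 to 5.55, 4.99). The last stood above hippocampus by 2.00 (SE 0.375, adjusted p = 0.000255), a size limited by background. *Gabrr2*, a rho subunit, was seen mainly in hippocampus (3.92 to 6.05, 5.24), against 2.99 to 3.91 in striatum (3.65) and 3.09 to 3.73 on arrays labelled pituitary gland (3.46). Its lowest hippocampus array only just exceeded the highest striatum array. No size is given for these differences, since all arrays outside hippocampus were under 20.

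Neighbouring genes did not always share a pattern. In the RefSeq annotation *Gabra5* and *Gabrg3* are adjacent protein-coding genes on chromosome 1, *Gabra2* and *Gabrg1* on chromosome 14, and *Gabra3* and *Gabrq* lie on the X chromosome with 1 gene between them. For each of these pairs the log2 difference between the genes was taken on each array. Its change between tissues was tested by an exact two-sided permutation test over arrays, with p-values adjusted over 6 such comparisons. A further adjacent pair, *Gabrr2* and *Gabrr1* on chromosome 5, was not compared, and *Gabrr1* reached an intensity of 20 on no array. Hippocampus and striatum gave a change of 4.34 for *Gabra5* relative to *Gabrg3* (exact permutation test, p = 0.00216, adjusted p = 0.00324). The value 0.00216 is the smallest p that 6 against 6 arrays allow. Both genes had separated these tissues without overlap and in opposite directions above. This p-value therefore follows from those ranges and is no further result. The same comparison gave 0.32 for *Gabra2* relative to *Gabrg1* (adjusted p = 0.0701, exact permutation test) and 0.46 for *Gabrq* relative to *Gabra3* (adjusted p = 0.227, exact permutation test). Between arrays labelled olfactory bulbs and pituitary gland, the change was -5.70 for *Gabra5* relative to *Gabrg3*, 4.07 for *Gabrq* relative to *Gabra3* and -0.73 for *Gabra2* relative to *Gabrg1* (adjusted p = 0.00324 for each, exact permutation test). For *Gabra5* with *Gabrg3* and for *Gabrq* with *Gabra3*, this p-value again follows from the ranges of the single genes and is no further result. *Gabra5* was under 20 on all 6 arrays labelled olfactory bulbs and *Gabrq* on all hippocampus arrays, so the sizes that rest on them are limited by background. Promoter windows, from 250 bases before to 50 after the RefSeq start in GRCr8, matched 17 of the 24 genes, and those of the 2 pairs with the larger changes are shown, to set the starts of neighbours side by side. The capitals mark GC boxes (GGGCGG, on the other strand CCGCCC) and TATA boxes (TATAAA, on the other strand TTTATA). The windows lie at chr1:117516557-117516856 (*Gabra5*), chr1:117382408-117382707 (*Gabrg3*) and chrX:155543821-155544120 (*Gabra3*), all on the minus strand, and at chrX:155738186-155738485 (*Gabrq*) on the plus strand, each written from 5′ to 3′ along its gene.
Gabra5: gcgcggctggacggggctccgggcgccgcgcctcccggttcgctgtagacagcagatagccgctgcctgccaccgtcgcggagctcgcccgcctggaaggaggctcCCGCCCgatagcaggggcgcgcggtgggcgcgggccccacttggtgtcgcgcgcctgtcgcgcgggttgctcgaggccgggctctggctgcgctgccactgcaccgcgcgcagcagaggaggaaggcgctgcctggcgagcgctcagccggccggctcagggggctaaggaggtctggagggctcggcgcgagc
Gabrg3: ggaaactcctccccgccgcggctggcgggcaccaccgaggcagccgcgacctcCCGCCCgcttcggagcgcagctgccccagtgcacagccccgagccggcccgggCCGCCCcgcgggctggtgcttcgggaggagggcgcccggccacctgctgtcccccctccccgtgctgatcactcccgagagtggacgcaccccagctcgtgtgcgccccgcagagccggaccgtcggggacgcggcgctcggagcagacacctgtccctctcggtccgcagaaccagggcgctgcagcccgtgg
Gabra3: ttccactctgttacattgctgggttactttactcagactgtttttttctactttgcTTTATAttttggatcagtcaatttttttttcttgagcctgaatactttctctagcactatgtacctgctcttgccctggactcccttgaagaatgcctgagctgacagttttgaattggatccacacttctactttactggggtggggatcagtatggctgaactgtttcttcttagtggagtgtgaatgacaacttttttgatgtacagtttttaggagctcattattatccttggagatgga
Gabrq: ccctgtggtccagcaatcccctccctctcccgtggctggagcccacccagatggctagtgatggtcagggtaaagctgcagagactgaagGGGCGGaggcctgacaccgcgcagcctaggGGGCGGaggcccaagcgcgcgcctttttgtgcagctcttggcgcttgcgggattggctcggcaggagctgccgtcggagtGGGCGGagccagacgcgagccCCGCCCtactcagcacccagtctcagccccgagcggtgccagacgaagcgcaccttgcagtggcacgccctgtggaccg
The adjacent *Gabra5* and *Gabrg3* both had windows rich in G and C (76.3 and 76.7%) with 42 and 37 CpG, and held 1 and 2 GC boxes. *Gabra3* had 39.3% G and C, no CpG and 1 TATA box, whereas *Gabrq* had 68.3%, 23 CpG and 4 GC boxes. A GC box was present in 7 of 17 receptor windows and in 33.1% of 33469 promoters of this length, and a TATA box in 2 of 17 and in 14.2%. The CRE (TGACGTCA) was in 0 of 17 windows and 1.83% of promoters, and the NRF1 motif in 1 of 17, that of *Gabrb2*, and 0.852%, each searched on both strands. A match is a description of the letters in these windows only.

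Over all receptor genes, hippocampus and striatum differed in 10 of 21, where 24.4% of all genes tested passed. The 4 higher in hippocampus (11.2% of all genes) were *Grm2*, *Gabra5*, *Gabrr2* and *Grm6*, and the 6 lower (13.2%) were *Gabrg3*, *Grik3*, *Gabrd*, *Gabra3*, *Grid1* and *Grm3*. No array of one tissue overlapped the other in 8 of 21 receptor genes and 12% of all genes. *Gabrr2* passed the filter only through hippocampus, so its place in these counts was built into its selection. The same holds for its place in the counts against hippocampus below. The median log2 difference was -0.09, against -0.04 for all genes. Arrays labelled pituitary gland differed from hippocampus in 15 of 21 (62.1% of all genes), 6 higher (43.4%) and 9 lower (18.6%). From striatum they differed in 14 (61.3%), 6 higher (42%) and 8 lower (19.4%). Arrays did not overlap in 13 (38.8% of all genes) and 10 (42.7%). Both comparisons cross the 2 sets of arrays that differ in median intensity. Against hippocampus, 1 of 12 glutamate receptor genes was higher and 7 lower, with a median of -0.34, whereas 5 of 9 GABA-A receptor genes were higher and 2 lower, with a median of 0.77. Against striatum the counts were 2 higher and 7 lower for glutamate, with a median of -0.36, and 4 higher and 1 lower for GABA-A, with a median of 0.05. The median of all genes in these comparisons was 0.22 and 0.20, and no test of the difference between the 2 receptor families was made. With quantile normalization repeated, the share of higher calls over all genes fell from 70 to 50.6% and from 68.4 to 50.2%, while the receptor genes gave 6 higher and 11 lower against hippocampus and 5 higher and 8 lower against striatum, with 0 changes of sign among those called.

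**Figure D3:**
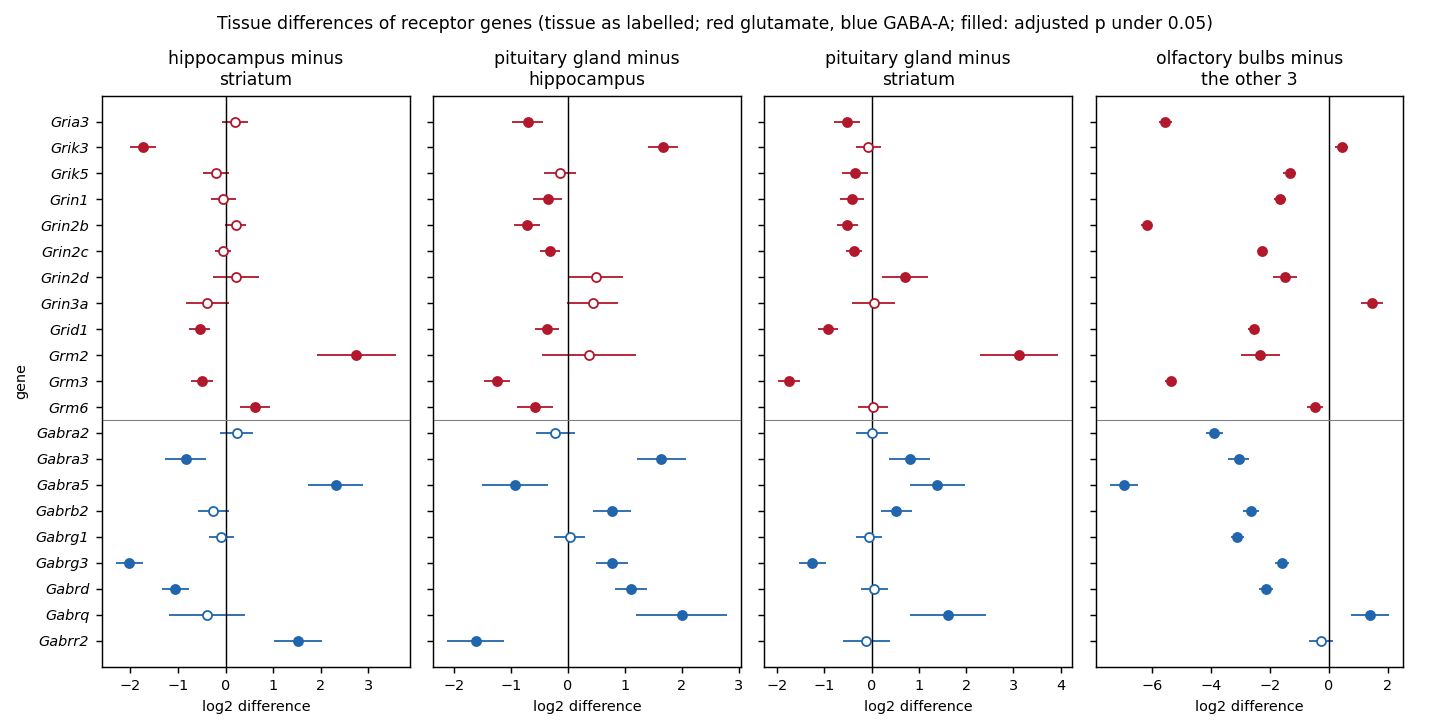
Points are log2 differences between labelled tissues from limma with 95% confidence intervals, glutamate receptor genes in red and GABA-A receptor genes in blue, filled where the adjusted p was under 0.05. Arrays labelled pituitary gland had 7 of 12 glutamate genes lower than hippocampus and 5 of 9 GABA-A genes higher, and the axis of the panel for olfactory bulbs is wider.

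Genes that serve these receptors also differed by tissue, on lists drawn up with earlier results known. Of 12 auxiliary subunits of AMPA and kainate receptors, 4 were higher and 4 lower in hippocampus than in striatum (11.2 and 13.2% of all genes), with the largest difference for *Shisa6*, an AMPA receptor partner (9.39 to 10.30 against 4.68 to 6.75, difference 4.21, adjusted p = 1.7e-07). Of 6 genes of glutamate supply and clearance, 3 were higher and 1 lower, with the largest difference for the vesicular transporter *Slc17a7*, 3.67 (adjusted p = 0.0015). Its striatum arrays spread from 4.97 to 10.29, and it is itself 1 of the 6 cortical genes. Of 4 genes of GABA supply and clearance, 2 were lower, *Slc32a1*, the vesicular GABA transporter, with a difference of -1.97 (adjusted p = 1.01e-08) and *Gad2*, a GABA-synthesizing enzyme, with -1.50 (adjusted p = 1.38e-07). On arrays labelled pituitary gland all 4 were higher than in hippocampus (43.4% of all genes), with a median of 1.97 and the largest difference, 2.46, for *Slc32a1* (adjusted p = 4.74e-10). Against striatum the largest were those of *Slc17a6*, another vesicular glutamate transporter, at 3.23 (adjusted p = 7.77e-05) and of *Homer2*, a scaffold of metabotropic receptors, at 3.11 (adjusted p = 8.31e-11). *Gabbr2*, a subunit of the GABA-B receptor, was higher in hippocampus than in striatum by 1.53 (adjusted p = 0.000164) and than on arrays labelled pituitary gland, where the difference was -2.18 (adjusted p = 1.37e-06). Of 9 postsynaptic scaffold genes, 2 were higher and 3 lower in hippocampus than in striatum, and 0 of 2 glycine receptor genes passed in limma (0 at an unadjusted p under 0.05).

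The arrays labelled olfactory bulbs, which carried pituitary hormone genes, had far less of most receptor transcripts. Of the 21 genes, 17 were lower and 3 higher than the mean of the other 3 tissues (79.5% of all genes passed, 29.4% lower and 50.1% higher), with a median log2 difference of -2.28 against 0.24 for all genes. No array overlapped the others in 14 receptor genes and 33.3% of all genes. *Gabra5* had 2.48 to 3.29 there (median 2.97), *Grin2b* 3.51 to 4.27 (3.93), *Gria3* 3.75 to 4.40 (4.0) and *Grm3* 2.95 to 3.92 (3.39). All of these stood under an intensity of 20 except *Gria3* on KO 1, so the size of the fall is limited by background. The fitted differences were -6.97 for *Gabra5* (SE 0.224, adjusted p = 9.61e-14), -6.18 for *Grin2b* (SE 0.0855, adjusted p = 3.25e-17), -5.56 for *Gria3* (SE 0.106, adjusted p = 2.18e-16) and -5.38 for *Grm3* (adjusted p = 4.13e-17). *Grin2b* has a second, dimmer probe set with 3.40 to 4.21 there and 5.08 to 6.50 on the other arrays, and the mean of both gave -4.13.

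*Grin2d* had 3.03 to 3.77 on these arrays, *Grm2* 2.70 to 3.95 and *Grm6* 3.58 to 3.99, also under an intensity of 20 on all 6. *Gabrd* (3.85 to 4.47) reached 20 on 2 of the 6 arrays and *Grin2c* (4.10 to 5.40) on 4. The following subunits stayed well above an intensity of 20 there. *Grin1* had 7.20 to 8.10, *Gabrb2* 6.89 to 8.37, *Grik5* 6.85 to 7.29, *Gabrg3* 6.14 to 7.33, *Gabra3* 5.57 to 7.10, *Gabrg1* 5.41 to 6.26, *Gabra2* 5.29 to 5.91 and *Grid1* 5.61 to 6.94. The 3 higher genes were *Grin3a*, *Gabrq* and *Grik3*. *Grin3a*, a glycine-binding NMDA subunit that lowers calcium entry, ranged from 6.07 to 8.19 there, against 4.73 to 6.19 in hippocampus, 5.16 to 6.41 in striatum and 5.42 to 6.13 on arrays labelled pituitary gland, a difference of 1.46 (SE 0.173, adjusted p = 9.23e-07). *Gabrq* had 4.29 to 5.89 (1.40, adjusted p = 0.000562), which overlapped the arrays labelled pituitary gland. *Grik3* had 7.57 to 8.79 (0.43, adjusted p = 0.00104), above hippocampus and overlapping the other 2 tissues. *Gabrr2* alone did not pass (-0.28, adjusted p = 0.188). Of the genes around the receptors, all 12 auxiliary subunits, all 4 genes of GABA supply and clearance, and both GABA-B receptor genes were lower on these arrays, as were 29.4% of all genes. *Gad2* fell to 2.91 to 3.46 there (difference -6.71, adjusted p = 3.25e-17), and *Neto1*, an auxiliary subunit of kainate receptors, differed by -5.62 (adjusted p = 1.17e-13). The pan-neuronal genes differed less, with list means of 8.41 to 8.97 there and 9.88 to 10.56 elsewhere.

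Between KO and WT rats, whose arrays differed in *Csf1r* and microglial transcripts, no receptor gene passed the test in 3 of the 4 tissues. In limma, 0 of 21 receptor genes passed for KO minus WT in hippocampus (0.61% of all genes passed), 0 in striatum (0.685%) and 0 on arrays labelled pituitary gland (0.938%). At an unadjusted p under 0.05 there was 1 in hippocampus (8.67% of all genes) and there were 0 in striatum (6.85%) and on arrays labelled pituitary gland (6.11%). KO and WT arrays did not overlap in 7 (29.4% of all genes), 5 (39%) and 6 (41.4%) of the 21, respectively. The median difference of all genes in hippocampus was -0.13, and with quantile normalization repeated the share of higher among all calls went from 1.54 to 14.1% there. The 1 gene was *Gabrr2*, with 5.33 and 6.05 on WT, 4.45 and 5.21 on HET and 3.92 and 5.26 on KO arrays, a difference of -1.11 (SE 0.409, adjusted p = 0.483). Both KO arrays lay below both WT arrays, while KO 2 lay above both HET arrays. The next smallest p in hippocampus was that of *Grin2c* with -0.22 (7.08 and 7.13 on WT, 6.88 and 6.90 on KO, adjusted p = 0.715), and the HET arrays (6.79 and 6.95) lay on either side of the KO values. Without KO 1, 1 gene passed in hippocampus, *Gabra2*, which was lower. It had 10.01 and 9.65 on WT and 10.10 and 8.85 on KO arrays, so that KO 1 lay above both WT arrays. KO 2, the array left, had the choroid plexus mean of 9.56, and WT 2, with *Gabra2* at 9.65, had one of 9.48. The part of choroid plexus in the *Gabra2* values was not tested. In striatum *Grm3* had 9.76 and 9.77 on WT, 9.56 and 9.32 on HET and 9.49 and 9.50 on KO arrays (-0.27, SE 0.184, adjusted p = 0.895). *Gabrr2* had 3.20 and 3.63 on WT, 3.71 and 2.99 on HET and 3.91 and 3.68 on KO arrays, all under 20. On arrays labelled pituitary gland *Grid1* had 8.13 and 8.28 on WT, 8.56 and 8.54 on HET and 8.57 and 8.33 on KO arrays (0.24), and *Grik3* had 8.30 and 8.48, 8.30 and 8.54, and 8.23 and 7.99 (-0.28). The 95% confidence interval of the difference lay within 1 on either side of 0 for 15 of 21 genes in hippocampus, 15 in striatum and 18 on arrays labelled pituitary gland, and was widest for *Grm2*, with a half-width of 1.43.

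**Figure D4:**
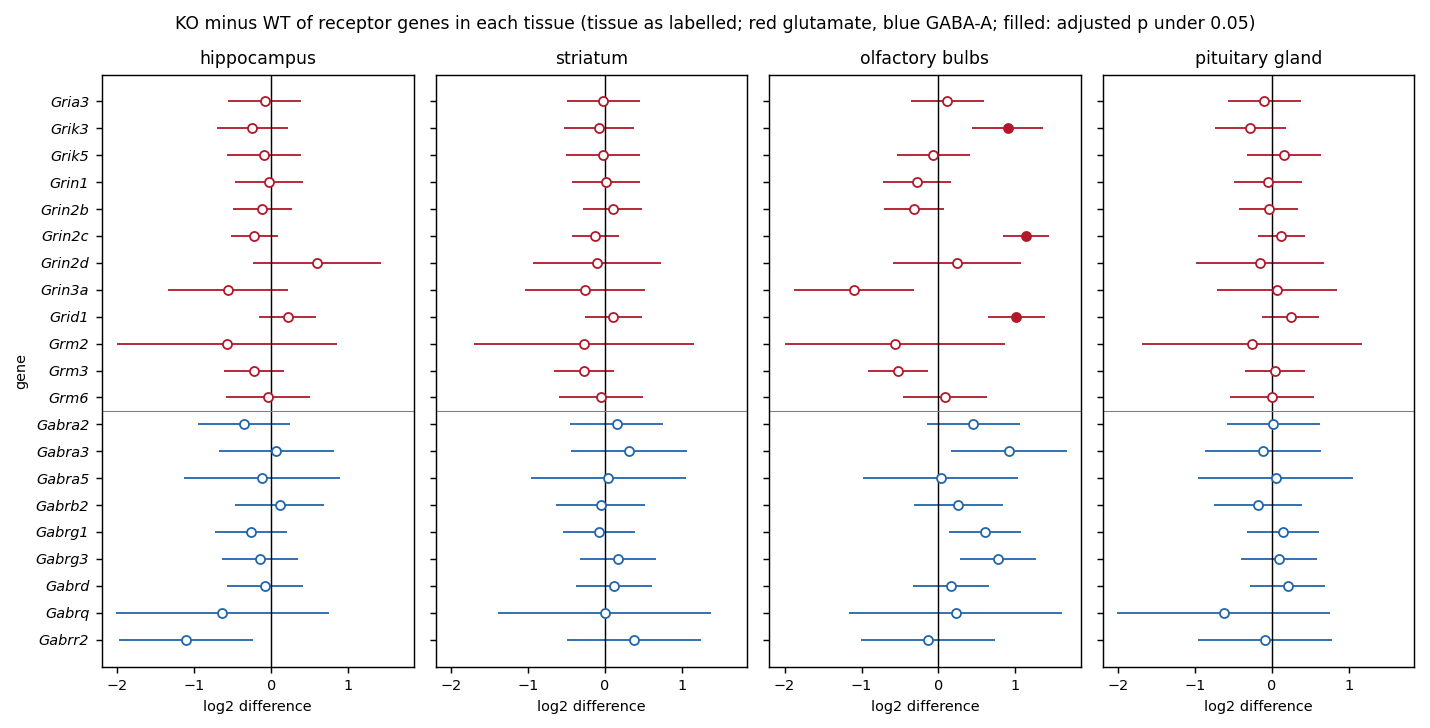
Points are log2 differences of KO minus WT arrays (2 per group) in each labelled tissue with 95% confidence intervals from limma, glutamate receptor genes in red and GABA-A receptor genes in blue, filled where the adjusted p was under 0.05. The 3 filled points are *Grin2c*, *Grid1* and *Grik3* on arrays labelled olfactory bulbs.

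On arrays labelled olfactory bulbs 3 of 21 receptor genes were higher in KO than in WT and 0 lower, where 1.81% of all genes passed, 0.76% higher and 1.05% lower. All 3 were glutamate receptor genes. *Grin2c* had 4.16 and 4.10 on WT, 4.40 and 4.33 on HET and 5.40 and 5.14 on KO arrays. Both KO arrays were above the other 4, and the WT arrays lay under an intensity of 20. The log2 difference was 1.14 (SE 0.143, 95% CI 0.83 to 1.44, adjusted p = 0.000339). *Grid1* had 5.61 and 6.19 on WT, 5.96 and 6.02 on HET and 6.88 and 6.94 on KO arrays, so that KO again stood above all WT and HET arrays, and the difference was 1.01 (SE 0.175, 95% CI 0.64 to 1.38, adjusted p = 0.0062). Its second probe set had 3.97 and 4.17 on WT, 4.56 and 4.84 on HET and 4.76 and 4.80 on KO arrays, with HET and KO overlapping. *Grik3* had 7.57 and 8.15 on WT, 7.99 and 8.0 on HET and 8.79 and 8.73 on KO arrays, a difference of 0.90 (SE 0.217, 95% CI 0.44 to 1.36, adjusted p = 0.0452). HET values of *Grid1* and *Grik3* lay between the 2 WT arrays.

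Of these, *Grin2c* also passed the test for a KO effect that differs between the 4 tissues (adjusted p = 0.0195, limma F test, 0.15% of all genes passed). Its KO minus WT differences were -0.22 in hippocampus, -0.12 in striatum and 0.12 on arrays labelled pituitary gland. The call was lost without WT 1 (adjusted p = 0.0922), KO 1 (0.136) or KO 2 (0.0501) of the arrays labelled olfactory bulbs. The other 20 genes did not pass that test, so the KO effects on *Grid1* (adjusted p = 0.332) and *Grik3* (adjusted p = 0.277) were not shown to differ between tissues. A further 5 receptor genes had an unadjusted p under 0.05 on arrays labelled olfactory bulbs without passing after adjustment, which makes 8 of 21 where 14.2% of all genes had such a p. KO and WT arrays did not overlap in 9 of the 21 and in 46.9% of all genes. *Gabra3* (0.91), *Gabrg3* (0.77) and *Gabrg1* (0.60) had higher and *Grin3a* (-1.10) and *Grm3* (-0.53) lower fitted values, with adjusted p-values from 0.117 to 0.237. *Gabrg3* had 6.43 and 6.42 on WT, 6.67 and 6.14 on HET and 7.33 and 7.04 on KO arrays, while *Grin3a* had 7.74 and 7.32, 7.10 and 8.19, and 6.07 and 6.80. Both KO arrays stood above all 4 WT and HET arrays in 4 of 21 receptor genes and in 18.1% of all genes, and below them in 1 and in 11.6%. The gene below was *Grin3a*.

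**Figure D5:**
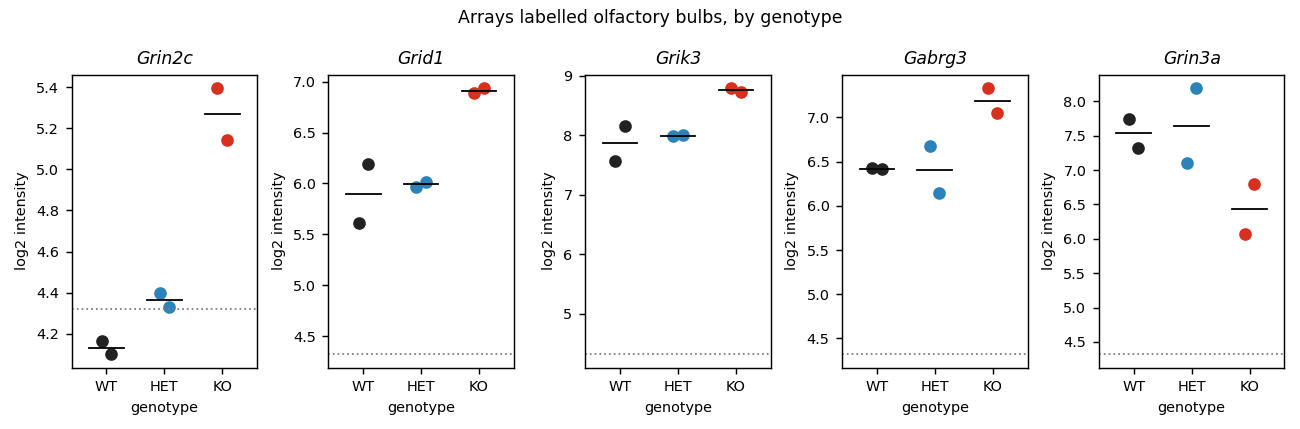
Points are log2 intensities of single arrays labelled olfactory bulbs by genotype (2 per genotype), with the line at their mean and the dotted line at an intensity of 20. KO arrays were above all WT and HET arrays for *Grin2c*, *Grid1*, *Grik3* and *Gabrg3* and below them for *Grin3a*.

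Of 35 genes around the receptors, 3 passed on these arrays, where 1.81% of all genes did. *Nlgn1*, a neuroligin that organizes excitatory synapses, was higher in KO by 1.15 (SE 0.217, adjusted p = 0.0117). *Slc1a1*, a neuronal glutamate transporter, was higher by 0.79 (SE 0.141, adjusted p = 0.00793), and *Slc6a13*, a GABA transporter of meninges and liver, was lower, with -1.07 (SE 0.246, adjusted p = 0.0378). Of 10 marker lists on these arrays, 5 overlapped between KO and the other arrays, 4 were higher on both KO arrays than on all 4 WT and HET arrays, and 1, that of microglia, was lower (3.18 and 3.47 against 6.41 to 7.14). The mean of 8 anterior pituitary genes was 10.56 and 10.52 on WT, 10.30 and 10.54 on HET and 10.77 and 10.33 on KO arrays. The mean of 6 pan-neuronal genes was 8.41 and 8.72 on WT, 8.61 and 8.63 on HET and 8.97 and 8.75 on KO arrays, so that both KO arrays were highest, by a small margin. The other 3 higher lists were those of cortical projection neurons (4.81 and 4.93 against 4.41 to 4.70), hippocampal neurons (5.83 and 5.89 against at most 5.73) and olfactory mucosa (3.22 and 3.24 against 2.90 to 3.16). The part of these lists in the receptor differences was not tested. The call of *Grin2c* was kept without either WT or either KO array (adjusted p 0.00201 to 0.00884). *Grid1* lost it without WT 1 (0.72, adjusted p = 0.0856) and without KO 2 (0.98, adjusted p = 0.0569), and *Grik3* lost it without WT 1 (0.61, adjusted p = 0.515), without KO 1 (0.87, adjusted p = 0.242) and without KO 2 (0.93, adjusted p = 0.175).

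Averaged over the 4 tissues, which leaves 1 value per genotype and replicate number, 0 of 21 receptor genes passed for KO minus WT (1.16% of all genes passed) and 0 for HET minus WT (0%), with 3 and 1 at an unadjusted p under 0.05 (9.42 and 3.29% of all genes). *Grin3a* had means of 6.47 and 6.18 in WT, 6.08 and 6.19 in HET and 5.79 and 5.92 in KO (-0.47, SE 0.123, adjusted p = 0.232). *Grid1* had 7.89 and 8.10 in WT, 8.20 and 8.18 in HET and 8.48 and 8.29 in KO (0.39, SE 0.114, adjusted p = 0.288, limma). Its difference was largest on arrays labelled olfactory bulbs, with means of 5.90 in WT and 6.91 in KO. The WT and KO means were 8.64 and 8.85 in hippocampus, 9.22 and 9.33 in striatum, and 8.21 and 8.45 on arrays labelled pituitary gland. Averaged over tissues, KO lay below both other genotypes for *Grin3a* and above them for *Grid1*. For HET the 2 smallest p-values were those of *Grm3* (-0.29, with 7.62 and 7.68 in WT against 7.43 and 7.30 in HET) and *Gabra3* (0.22, with 8.50 and 8.75 against 8.95 and 8.73). The confidence interval of KO minus WT lay within 1 on either side of 0 for 20 of 21 genes, and that of HET minus WT for all 21.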

How the data were processed

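The authors hybridized total RNA of snap-frozen tissue to Affymetrix Rat Gene 2.1 ST arrays and deposited linear intensities of 36685 probe sets, which they had normalized with RMA in R/Bioconductor (versions not given in the sources used here). RMA brings the probe intensities of arrays to 1 distribution before they are summarized per probe set, so values are relative to the other arrays. The 24 brain and pituitary arrays were taken as normalized together and apart from 8 spleen and macrophage arrays, because 2 columns held 8 or more exactly equal values within the 24 (10 to 71 between hippocampus or striatum and the other 2 labelled tissues) and 0 to 1 across the sets. Every column of the table belonged to a sample of the series. Here values were put on the log2 scale. Of the probe sets, 14824 had 1 gene symbol in the platform annotation, 829 had several and 21032 had none, and one with several symbols (*Gabrb1*) was not used. Genes with 1 of 24 arrays at an intensity of 20 were tested.

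limma 3.58.1 in R 4.3.3 was fitted to 12 groups of tissue and genotype that shared 1 variance, and to 6 means over tissues, with Benjamini-Hochberg adjustment over all 10663 genes and a threshold of 0.05. Known changes in simulated data were checked for hippocampus minus striatum and for KO minus WT, and the fit recovered the large ones. No simulated KO effect differed between tissues. Promoters came from RefSeq (GRCr8). Other steps used Python 3.11.15, pandas 2.3.3, scipy 1.17.1 and matplotlib 3.10.9.

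The genes and lists were chosen with earlier results of these data known. In each tissue comparison, full values are given for up to 3 rises and 3 falls, the largest that passed without overlap between arrays. In each genotype comparison they are given for every gene that passed, or for the 2 smallest p-values, and other genes are given by range. Of the genes around the receptors, those with the largest differences are named. The alternatives tried were testing without the filter or with one at 50, a pseudocount of 16, the mean of a gene's probe sets, repeated quantile normalization, trend and robust variance, replicate or rat blocks, WT and HET together as reference, 3 tissues in place of 4, the methods' t-test, leaving out each array, and leaving out 8 arrays to which earlier results gave transcripts of another tissue.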

Additional observations from a re-analysis of the deposited data

Results flagged for a closer look

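*Grin2c*, an NMDA receptor subunit, was singled out because its KO minus WT difference was not equal in the 4 tissues (limma F test, adjusted p = 0.0195). It was 1.14 on arrays labelled olfactory bulbs and between -0.22 and 0.12 on the others. The call was lost with quantile normalization repeated (adjusted p = 0.124), without the 8 arrays left out together (0.184), and without WT 1 (0.0922), KO 1 (0.136) or KO 2 (0.0501) of the arrays labelled olfactory bulbs. No array of the 56 groups of 6 arrays tested stood apart from the other 5 by Dixon's criterion.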

How the results depend on the processing

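The number of receptor genes called kept to 7 to 11 for hippocampus minus striatum, 14 to 17 for pituitary gland minus hippocampus, 11 to 15 for pituitary gland minus striatum, 18 to 21 for olfactory bulbs minus the rest and 19 to 23 among the 4 tissues over 32 alternatives each, and no named gene changed direction. For KO minus WT on arrays labelled olfactory bulbs, where 3 passed, 1 passed without the 8 arrays left out together (*Grin2c*), 0 with the methods' t-test after adjustment, and 1 to 3 with each array left out. The lowest came without WT 1 and without KO 2, and *Grin2c* was called each time. *Grid1* lost its call in 4 and *Grik3* in 7 of 13 alternatives. For the test between tissues, where 1 passed, 0 passed with quantile normalization repeated and without the 8 arrays, and 0 to 1 with each array left out. In hippocampus 0 passed, and 0 to 1 with each array left out, which was *Gabra2* without KO 1. The methods' t-test without adjustment gave 1 gene in hippocampus (*Grin2c*), 1 in striatum (*Grm3*) and 1 for the mean of the 4 tissues (*Gabrg3*). No share of all genes is given for that test, so these unadjusted calls are not read as results. With 1 array left in a group, that array is assumed to vary like the other groups.

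Same-numbered arrays mostly did not deviate together, but those of hippocampus WT and KO did. The correlation of deviations from the group means was -0.27 to 0.45 in 12 pairs of genotypes within a tissue. Only 1 of these exceeded 0.1, that of hippocampus WT with KO (0.45), where both replicates 2 had the high choroid plexus means. It was -0.11 to 0.15 in 18 pairs of tissues within a genotype, and 1 exceeded 0.1. With the replicate number as a block, 2 receptor genes passed for KO minus WT on arrays labelled olfactory bulbs, 16 for pituitary gland minus hippocampus, and 1 for the test between tissues. Values under an intensity of 20, as of *Gabrr2* and *Grm2* outside their main tissue, have little precision, and 2 arrays per genotype left confidence intervals of 0.30 to 1.43 on either side in single tissues.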

Other observations

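On the 8 spleen and macrophage arrays, which were normalized apart, 2 of the 24 receptor genes reached an intensity of 20. *Gabrr2* did so on all 8, with log2 intensities of 5.25 to 6.02. *Gria3* had 6.44 to 6.87 on 4 spleen arrays, 8.52 on spleen HET 2 and 8.38 on spleen KO 2, and 2.36 and 2.54 on the 2 arrays of bone marrow-derived macrophages. Spleen HET 2 and KO 2 thus stood above the other 4 spleen arrays for *Gria3*. *Gabrr2* reached 20 on hippocampus, spleen and macrophage arrays and on no array of the other 3 labelled tissues.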
